A study of Mus musculus with 6 samples.

Results

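Enzymes of drug and xenobiotic metabolism were followed in the RNA of cells sorted from mouse kidney. Genes were taken by symbol from the families of cytochromes P450 (without the fatty acid hydroxylases of family CYP4), flavin monooxygenases (FMO), carboxylesterases (CES), epoxide hydrolases (EPHX), quinone oxidoreductases (NQO), UDP-glycosyltransferases (UGT), glutathione S-transferases (GST) and cytosolic sulfotransferases (SULT), with pseudogenes left out. This gave 64 of the 12125 genes of the deposited table. They were 17 members of CYP2, 4 of other P450 families, 4 FMO, 4 CES, 2 EPHX, 2 NQO, 10 UGT, 17 GST and 4 SULT genes, and no CYP1 gene was listed. All 64 are annotated as protein-coding, and they lie on 16 chromosomes.

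The libraries came from 3 Trf1+/+ and 3 Trf1flox/flox mice. Mice of both groups carried Col1a2-CreERT2, a Cre recombinase that tamoxifen activates in cells using the *Col1a2* promoter, and a KFP reporter (KFP+/t, Cre+/t), so the groups differed in the *Trf1* allele and shared Cre, reporter and drug. Male and female mice entered at an age of 6 to 8 weeks and received tamoxifen 3 times a week for 8 weeks, and the labels do not give the sex of each mouse. From each kidney sample 500 cells were sorted by CD29, an integrin subunit, and KFP, the cells being labelled fibroblasts, and their polyadenylated RNA was copied, amplified and sequenced without molecular identifiers. Replicate numbers only name libraries and pair no mice.

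These enzymes clear drugs, toxins and endogenous lipids in steps. Phase I enzymes (P450, FMO, CES, EPHX, NQO) oxidise, reduce or hydrolyse a molecule and so expose a reactive group, phase II enzymes (UGT, GST, SULT) attach a sugar acid, glutathione or sulfate, and efflux pumps then export the conjugate. Liver holds the largest share of them in the body. In the kidney they are known mainly from the proximal tubule, the segment that takes up and secretes organic anions and cations, and several of them, *Cyp2e1* among them, are known to differ between the sexes in mouse kidney.

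The deposited values are normalized counts, reads divided by a size factor for each library. Library totals were 10263382 to 12248797 reads over the listed genes, and 1 read was worth 0.689 to 1.09 normalized counts. *Terf1*, which encodes TRF1, was read at 0.891, 253 and 235 in replicates 1 to 3 of Trf1+/+ and at 110.0, 7.65 and 12.4 in those of Trf1flox/flox. Trf1+/+ replicate 1 held a single read of *Terf1*. It also had the fewest genes above 0, 8967 against 9733 to 11593 elsewhere. Its median gene had 13.4 normalized counts, against 118 to 148 elsewhere, and 34.4% of all tested genes were at or under 3 reads in it. Trf1flox/flox replicate 1 held 128 reads of *Terf1*, against 7 and 18 in the others of that label. Labels give a genotype and no level of *Terf1*, so these reads cannot decide whether a label is right, and labels were kept. Trf1flox/flox replicate 1 also stood apart with 1565 normalized counts of the X-linked *Xist*, against at most 55.7 elsewhere. It had none of the Y-linked *Ddx3y*, which had 116 to 997 in the other 5. Of 12 fibroblast and pericyte markers only *Col1a2* and *Dcn* were listed, with at most 2 reads of *Col1a2* in any library, whereas all 16 proximal tubule markers and all 6 markers of the loop of Henle and distal tubule were listed, 13 to 16 of the former and 6 of the latter above 3 reads in each library. The summed proximal tubule markers were 107240, 20055 and 81263 among Trf1+/+ and 23489, 73829 and 128750 among Trf1flox/flox libraries, and without *Kap*, which alone reached 71943, they were 35297, 11247 and 55428 against 18431, 44973 and 59931. Between the genotypes no marker passed adjustment. Log2 fold changes were positive for 13 of the 16 proximal tubule markers (median 0.85), against 55.9% of all tested genes (median 0.20). Of the 16, 3 were higher in Trf1flox/flox without overlap, as were 5.35% of all tested genes, and 1 of these 3, *Slc22a8*, had 1 read in Trf1+/+ replicate 1. *Slc12a3* and *Calb1* of the 6 distal markers and the Y-linked *Ddx3y* and *Uty* were lower in Trf1flox/flox without overlap, as were 3.33% of all tested genes. The part of these markers in the enzyme differences was not tested. Of 6 endothelial markers only *Pecam1* was listed, at no more than 12.0, no podocyte marker was listed, and 3 of 4 hepatocyte markers were. Of these, *Alb* was at 0 in 4 libraries, at 3.45 in Trf1flox/flox replicate 3 and at 118 in Trf1+/+ replicate 2. *Serpina1a* was at 0 in all Trf1+/+ libraries and at 137, 0 and 45.5 in the Trf1flox/flox libraries. *Ttr* was at 0, 51.4 and 51.2 in Trf1+/+ against 80.8, 333 and 924, higher in Trf1flox/flox without overlap. Markers summed to 592 to 17764 normalized counts for collecting duct, 0 to 2513 for leukocytes and 121 to 52403 for erythroid cells. In such bulk RNA, fewer cells of a type and less RNA per cell cannot be told apart.

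Read together, the 64 enzymes held 105660, 32451 and 79928 normalized counts in Trf1+/+ replicates 1 to 3 and 40312, 63340 and 92308 in Trf1flox/flox replicates 1 to 3. As a share of all normalized counts of a library this was 0.968%, 0.334% and 0.790% against 0.446%, 0.514% and 1.31%. The groups overlapped, and the lowest sums were those of Trf1+/+ replicate 2 and Trf1flox/flox replicate 1, the libraries that also held the lowest sums of proximal tubule markers. Markers of the loop of Henle and distal tubule summed to 127310 and 148140 in those libraries and to 58724 to 105330 in the other 4. Whether the share of tubule cells had a part in the enzyme levels was not tested.

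**Figure D1:**
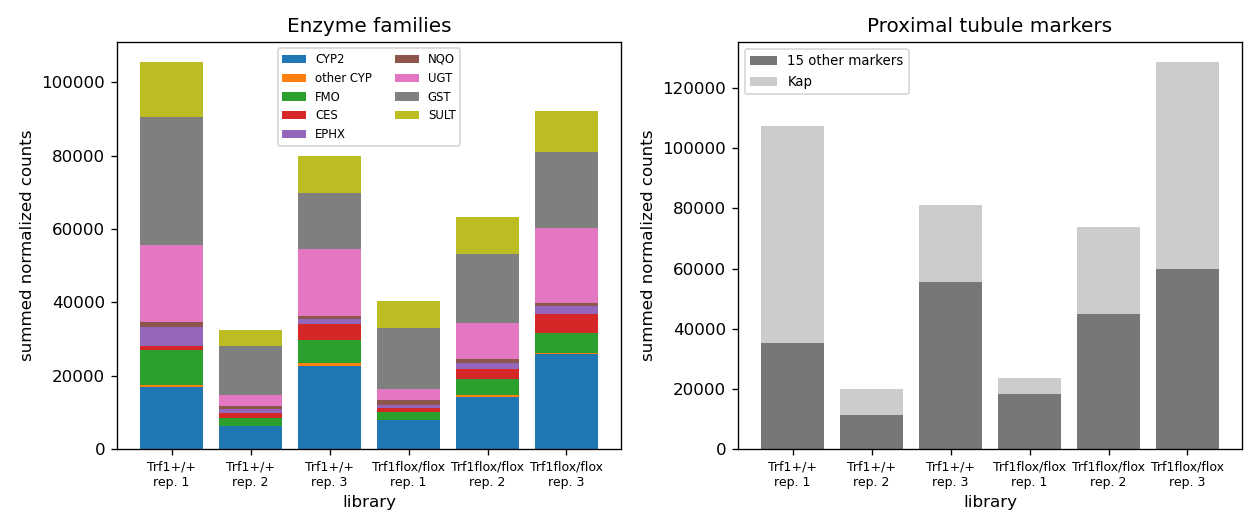
Summed normalized counts (vertical axes, linear from 0) of the enzyme families in each library (left, colours stand for families) and of the 16 proximal tubule markers (right, *Kap* drawn apart from the 15 others). Trf1+/+ replicate 2 and Trf1flox/flox replicate 1 have the shortest bars in both panels, with enzyme sums of 32451 and 40312.

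**Figure D2:**
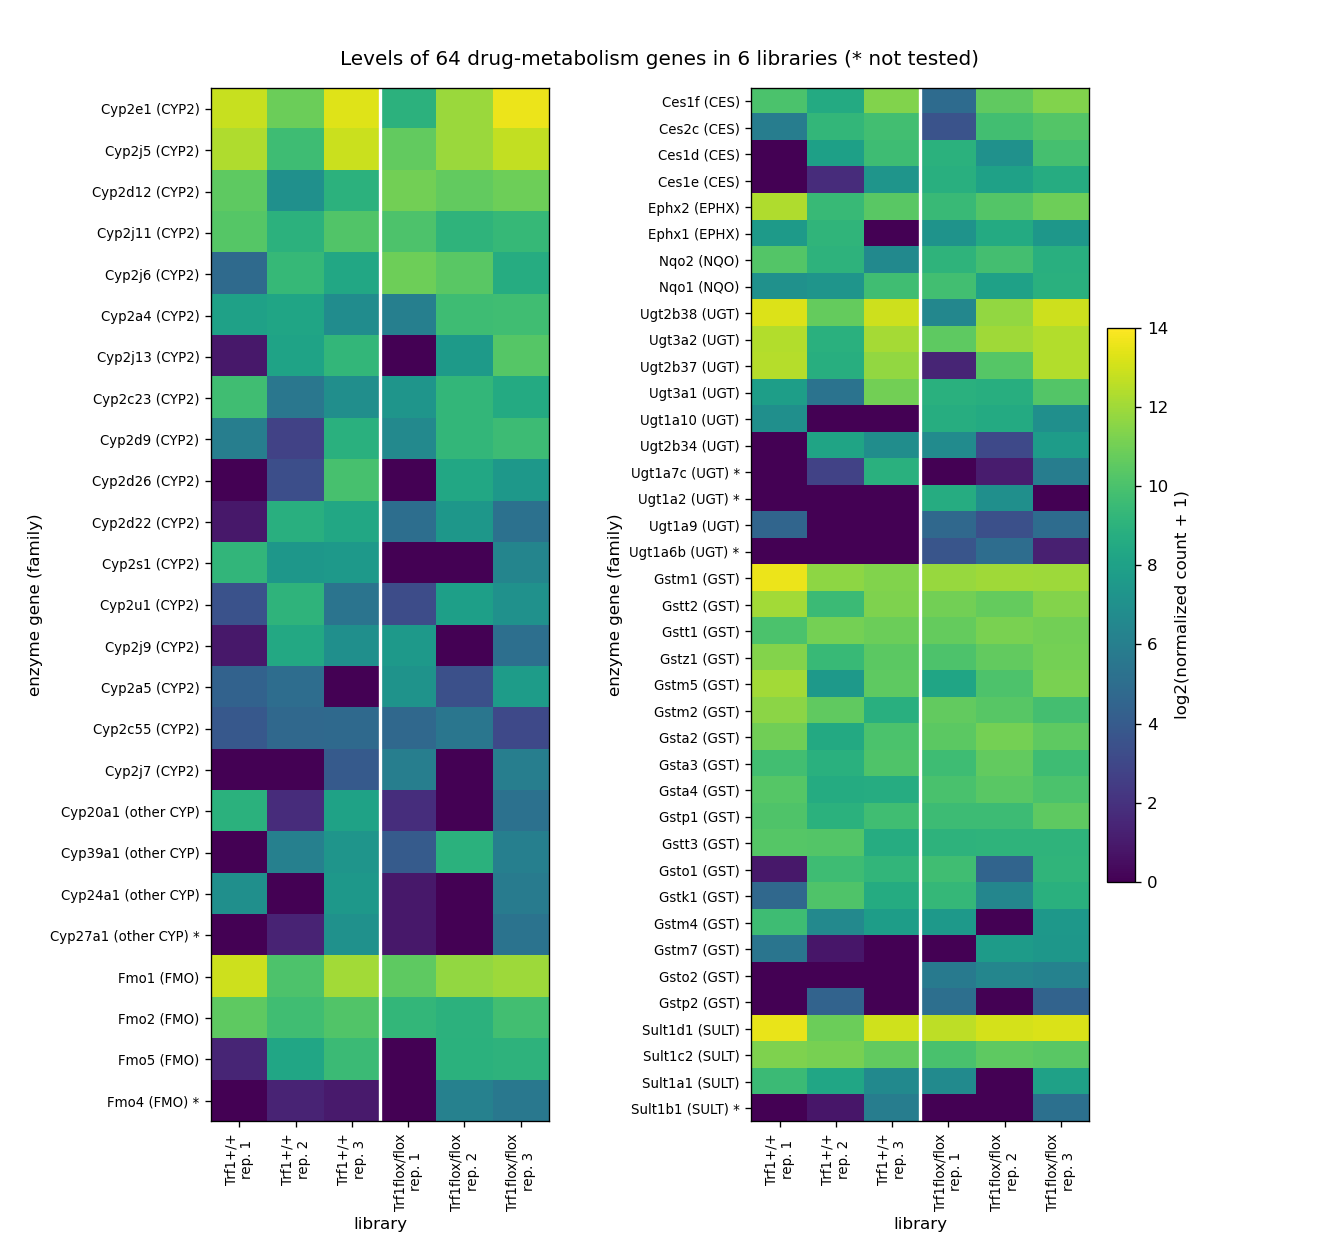
Level of each of the 64 enzyme genes (rows, with the family) in the 6 libraries (columns), colour giving log2 of the normalized count plus 1. A white line divides the genotypes and an asterisk marks the 6 genes that were not tested. *Sult1d1* and *Gstm1* are bright in all libraries, whereas *Gsto2* is dark in the 3 Trf1+/+ libraries only.

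Levels of different genes were compared per kb of exon. On this scale *Gstm1* was first with a mean of 3355 normalized counts per kb over the 6 libraries, followed by *Sult1d1* with 3144, *Cyp2e1* with 2781, *Ugt2b38* with 2708, *Cyp2j5* with 1806 and *Ugt2b37* with 1397. The spread between libraries under this order was wide for some of these genes and narrow for others. From the lowest to the highest library the level of *Gstt1* moved 2.20-fold and that of *Sult1c2* 2.47-fold, that of *Gstm1* 4.81-fold, and that of *Ugt2b38* 111-fold. Neighbours in the order such as *Gstm1*, *Sult1d1*, *Cyp2e1* and *Ugt2b38* had overlapping values over the libraries.

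Of the 64 enzymes, 58 reached 10 normalized counts in 3 or more libraries and were compared between genotypes with limma on log2(normalized count + 1), fitted over all 9966 genes that met this filter. The 6 not tested were *Cyp27a1*, *Fmo4*, *Sult1b1*, *Ugt1a2*, *Ugt1a6b* and *Ugt1a7c*. A positive log2 fold change means a higher level in Trf1flox/flox. Values were positive for 34 of the 58 tested enzymes (58.6%, against 55.9% of all tested genes) and negative for 24, with a median log2 fold change of 0.31, against a median of 0.20 over all tested genes. None of the 58 had an adjusted p under 0.05, the smallest being 0.970 (limma, Benjamini-Hochberg over all tested genes), and the share of all tested genes called in this way was 0%. At an unadjusted p under 0.05 limma called 312 of all tested genes and 5 of the enzymes. On the reads recovered from the table, edgeR called 0 enzymes after adjustment and 1 before it, *Gsto2*, and DESeq2 called 0 after adjustment and 2 before it, *Gsto2* and *Cyp20a1*.

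Before adjustment, 4 of the 58 enzymes were higher in Trf1flox/flox at a limma p under 0.05, *Gsto2*, *Ces1e*, *Cyp2d12* and *Ugt1a10*. In this direction 2.1% of all tested genes passed. *Gsto2* met the filter on low values only through the Trf1flox/flox libraries, so it had to differ, and its p and its lack of overlap support nothing. *Cyp2s1* was lower, where 1.03% of all tested genes passed. The 6 libraries of *Ces1e*, *Cyp2d12* and *Gsto2* did not overlap between the genotypes, with Trf1flox/flox higher, as did those of 5.35% of all tested genes. *Cyp2s1* and *Sult1c2* did not overlap with Trf1flox/flox lower, as did 3.33% of all tested genes. The shares of enzymes without overlap, 5.17% and 3.45%, lay close to those of all genes. The 4 higher by p count *Gsto2*, so their number was not read as an excess over all genes. The number higher by p was 1 of 58 with edgeR (against 1.26% of all genes) and 1 of 58 with DESeq2 (against 2.44%). None of these enzymes passed adjustment, and their values are given with their families below. These counts rested on single libraries. The number higher at an unadjusted p under 0.05 was 6 of 54 without Trf1+/+ replicate 1, against 2.67% of all genes tested without it. It was 2 of 57 without Trf1+/+ replicate 2 (against 3.49%) and 3 of 54 without Trf1+/+ replicate 3 (against 5.8%). Without a Trf1flox/flox library *Gsto2* no longer met the filter on low values. The number was then 1 of 54 without replicate 1 (against 0.322%), 2 of 55 without replicate 2 (against 0.49%) and 1 of 50 without replicate 3 (against 0.665%). The number lower was 0 without Trf1+/+ replicate 1 (against 0.67% of all genes) or Trf1flox/flox replicate 1 (1.33%) or 2 (0.959%). It was 1 without Trf1+/+ replicate 2 (1.17%) or 3 (1.57%), and 4 of 50 without Trf1flox/flox replicate 3 (2.04%). With fewer libraries groups overlap less readily. The number not overlapping and higher was 8 without Trf1+/+ replicate 1 (14.8%, against 9.17% of all genes tested without it), 6 without Trf1+/+ replicate 3 (11.1% against 13.7%), and 5 without Trf1flox/flox replicate 1 (9.26% against 8.23%) or replicate 2 (9.09% against 8.45%). The number lower was 8 without Trf1+/+ replicate 2 (14% against 8.59%) and 4 without Trf1+/+ replicate 3 (7.41% against 11.8%).

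**Figure D3:**
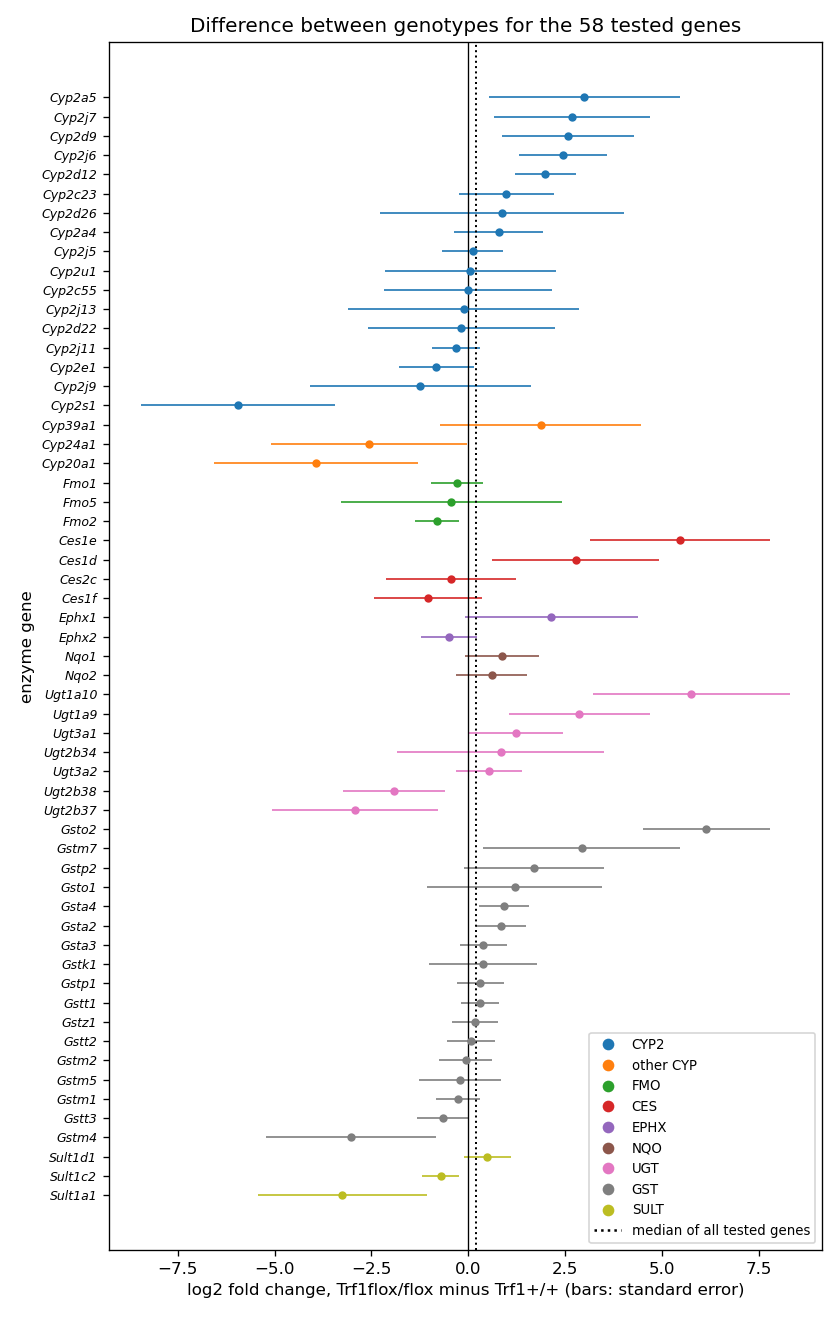
Log2 fold change of each of the 58 tested enzymes (rows, coloured by family), Trf1flox/flox minus Trf1+/+ on the log2(normalized count + 1) scale, with bars of 1 standard error from limma. The dotted line is the median of all tested genes, 0.20. The points run from -5.94 for *Cyp2s1* to 6.15 for *Gsto2*, and the longest bars belong to genes with a library at or near 0.

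CYP2 enzymes are membrane-bound monooxygenases that oxidise many drugs and also fatty acids. All 17 were tested, 10 with positive and 7 with negative log2 fold changes, with a median of 0.12. *Cyp2e1*, which oxidises ethanol, paracetamol and small solvents (ENSMUSG00000025479, chromosome 7, 140763739 to 140774987, positions on GRCm38), had 7229, 1881 and 10104 normalized counts among Trf1+/+ and 517, 3844 and 12435 among Trf1flox/flox libraries. Both the lowest and the highest value lay in Trf1flox/flox. The log2 fold change was -0.82 ± 0.97 (SE), and it turned to 0.42 without Trf1flox/flox replicate 1.

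*Cyp2j5*, an epoxygenase of arachidonic acid known from the proximal tubule (ENSMUSG00000052520, chromosome 4, 96628773 to 96664154), had 5143, 789 and 7517 among Trf1+/+ and 1584, 3752 and 6620.2 among Trf1flox/flox libraries. The low libraries were again Trf1+/+ replicate 2 and Trf1flox/flox replicate 1, and the groups overlapped, with a log2 fold change of 0.12 ± 0.79 (SE) that was -0.87 without Trf1+/+ replicate 2 and -0.36 without Trf1flox/flox replicate 3. *Cyp2d12*, of the subfamily whose human member CYP2D6 oxidises many drugs (ENSMUSG00000096852, chromosome 15, 82555072 to 82560403), had 1484, 131 and 517 among Trf1+/+ and 2084, 1592 and 1929 among Trf1flox/flox libraries. Every Trf1flox/flox value lay above every Trf1+/+ value, although Trf1+/+ replicate 1 came close. Group means of 711 ± 697 and 1868 ± 251 (SD, n = 3 each) gave a 2.63-fold ratio of means. On the log2 scale the difference was 1.99 ± 0.80 (SE, adjusted p = 0.970 from limma), and leaving out a library in turn gave 1.08 to 2.83.

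*Cyp2s1*, a P450 of epithelia that the aryl hydrocarbon receptor is known to induce (ENSMUSG00000040703, chromosome 7, 25802475 to 25816913), had 588, 172 and 186 among Trf1+/+ and 0, 0 and 81.3 among Trf1flox/flox libraries. It was absent from 2 Trf1flox/flox libraries, and the third lay below all Trf1+/+ libraries. The means of 315 ± 236 and 27.1 ± 46.9 (SD, n = 3 each) differ 11.6-fold, and the log2 fold change was -5.94 ± 2.50 (SE, adjusted p = 0.970 from limma). A single read was worth about 1 normalized count here, so the log2 value of a gene with libraries at 0 depends on the count of 1 that was added. An annotated antisense gene shares 5.27% of the exonic bases of *Cyp2s1*, and the kit did not mark strand.

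The other 13 CYP2 genes had mean levels between 23.6 and 879 normalized counts, and their log2 fold changes lay between -1.23 for *Cyp2j9* and 3.0 for *Cyp2a5*, none at an unadjusted p under 0.05. They were *Cyp2a4*, *Cyp2a5*, *Cyp2c23*, *Cyp2c55*, *Cyp2d9*, *Cyp2d22*, *Cyp2d26*, *Cyp2j6*, *Cyp2j7*, *Cyp2j9*, *Cyp2j11*, *Cyp2j13* and *Cyp2u1*. *Cyp2j6* came nearest, with 27.6, 677 and 339 against 1944, 1357 and 403 normalized counts (log2 fold change 2.45 ± 1.14, SE, adjusted p = 0.970 from limma), and the groups overlapped at 403 and 677. *Cyp2a4* and *Cyp2a5* share between 37.0% and 38.8% of their 50-base windows with other genes, chiefly each other, so reads may have been split between them.

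Other P450 genes are better known for endogenous substrates. *Cyp20a1*, an orphan P450 (ENSMUSG00000049439, chromosome 1, 60343323 to 60388060), had 493, 2.49 and 269 among Trf1+/+ and 2.58, 0 and 35.8 among Trf1flox/flox libraries, a log2 fold change of -3.93 ± 2.63 (SE). *Cyp24a1*, which inactivates vitamin D hormone (ENSMUSG00000038567, chromosome 2, 170482708 to 170497145), had 125, 0 and 172 and 0.859, 0 and 55.1, a log2 fold change of -2.57 ± 2.53 (SE). Both genes had Trf1+/+ replicate 2 among their lowest libraries, so the groups overlapped. *Cyp39a1*, an oxysterol hydroxylase (ENSMUSG00000023963, chromosome 17, 43667425 to 43751431), had 0, 66.3 and 159.6 and 15.5, 484 and 66.2, a log2 fold change of 1.88 ± 2.60 (SE) that became -0.36 without Trf1+/+ replicate 1. *Cyp27a1*, the mitochondrial sterol hydroxylase, was above 3 reads only in replicate 3 of each genotype, at 132 and 38.6.

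FMO enzymes oxidise nitrogen and sulfur atoms of drugs, and *Fmo1* is the main form of mouse kidney. *Fmo1* (ENSMUSG00000040181, chromosome 1, 162829561 to 162866610) had 7831, 1108 and 4310.0 among Trf1+/+ and 1501, 3439 and 3977 among Trf1flox/flox libraries. Its neighbour *Fmo2* (ENSMUSG00000040170, chromosome 1, 162874317 to 162898726) had 1483, 821 and 1175 and 617, 501 and 865. In *Fmo2* only the lowest Trf1+/+ and the highest Trf1flox/flox library crossed, and the log2 fold change was -0.81 ± 0.58 (SE), while that of *Fmo1* was -0.29 ± 0.68 (SE) and turned to 0.33 without Trf1+/+ replicate 1 and 0.15 without Trf1flox/flox replicate 1. *Fmo5*, which also oxidises ketones to esters (ENSMUSG00000028088, chromosome 3, 97628804 to 97655282), had 1.78, 311 and 752 and 0, 487 and 533. It was at or under 3 reads in replicate 1 of each genotype, and its log2 fold change of -0.44 ± 2.86 (SE) became 2.56 without Trf1flox/flox replicate 1, 0.48 without Trf1+/+ replicate 2 and 1.12 without Trf1+/+ replicate 3. *Fmo4* was not tested, with at most 2 reads outside Trf1flox/flox replicates 2 and 3, where it had 71.0 and 48.2.

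Carboxylesterases cleave esters and amides, among them many prodrugs, and the CES1 group also handles neutral lipids. *Ces1e* (ENSMUSG00000061959, chromosome 8, 93201218 to 93229619) had 0, 2.49 and 157 among Trf1+/+ and 448, 259 and 410.0 among Trf1flox/flox libraries. The Trf1flox/flox libraries all lay above the Trf1+/+ libraries, of which only replicate 3 was above 3 reads. Means were 53.1 ± 89.7 and 372 ± 99.8 (SD, n = 3 each), a 7.02-fold ratio, with a log2 fold change of 5.47 ± 2.33 (SE, adjusted p = 0.970 from limma). Leaving out a library in turn moved the log2 fold change between 3.95 and 7.60.

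*Ces1d*, a triacylglycerol hydrolase next to it (ENSMUSG00000056973, chromosome 8, 93166068 to 93197838), had 0, 250.2 and 790.3 and 494, 133 and 952. Its log2 fold change of 2.77 ± 2.15 (SE) rested on the 0 in Trf1+/+ replicate 1, without which it was -0.16. *Ces1f* (ENSMUSG00000031725, chromosome 8, 93256236 to 93279747) had 1030.5, 376 and 2589.6 and 29.2, 1512 and 2564, and *Ces2c* (ENSMUSG00000061825, chromosome 8, 104847068 to 104854483) had 59.7, 626 and 860.2 and 11.2, 857 and 1236. In both, Trf1flox/flox replicate 1 was the lowest of the 6 libraries. Their log2 fold changes of -1.03 ± 1.39 (SE) and -0.45 ± 1.67 (SE) became 0.97 and 1.69 without that library, and that of *Ces2c* was also positive without Trf1+/+ replicate 2 (0.038) or replicate 3 (0.27).

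The epoxide hydrolases open reactive epoxides with water. *Ephx2*, the soluble form that removes fatty acid epoxides (ENSMUSG00000022040, chromosome 14, 66084374 to 66124500), had 5227, 678 and 1358 among Trf1+/+ and 728, 1234 and 1912 among Trf1flox/flox libraries. *Ephx1*, the microsomal form (ENSMUSG00000038776, chromosome 1, 180976210 to 181020904), had 196, 562 and 0 and 144, 381 and 172. The groups of both genes overlapped. The log2 fold change of *Ephx2* was -0.50 ± 0.73 (SE) and 0.32 without Trf1+/+ replicate 1, and that of *Ephx1* was 2.15 ± 2.23 (SE) and -0.65 without Trf1+/+ replicate 3, its library at 0.

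Quinone oxidoreductases reduce quinones without a radical intermediate. *Nqo1*, a classical target of the transcription factor NRF2 (ENSMUSG00000003849, chromosome 8, 107388225 to 107403206), had 134, 157 and 819.8 among Trf1+/+ and 878, 261 and 475 among Trf1flox/flox libraries. *Nqo2* (ENSMUSG00000046949, chromosome 13, 33964687 to 33988443) had 1202, 539 and 97.6 and 547, 888 and 459.6. The values of both genotypes were interleaved in both genes, with log2 fold changes of 0.88 ± 0.96 (SE) and 0.60 ± 0.93 (SE), the latter -0.41 without Trf1+/+ replicate 3. *Serpinb6a* overlaps *Nqo2* in antisense over 18.9% or less of its exonic bases.

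**Figure D4:**
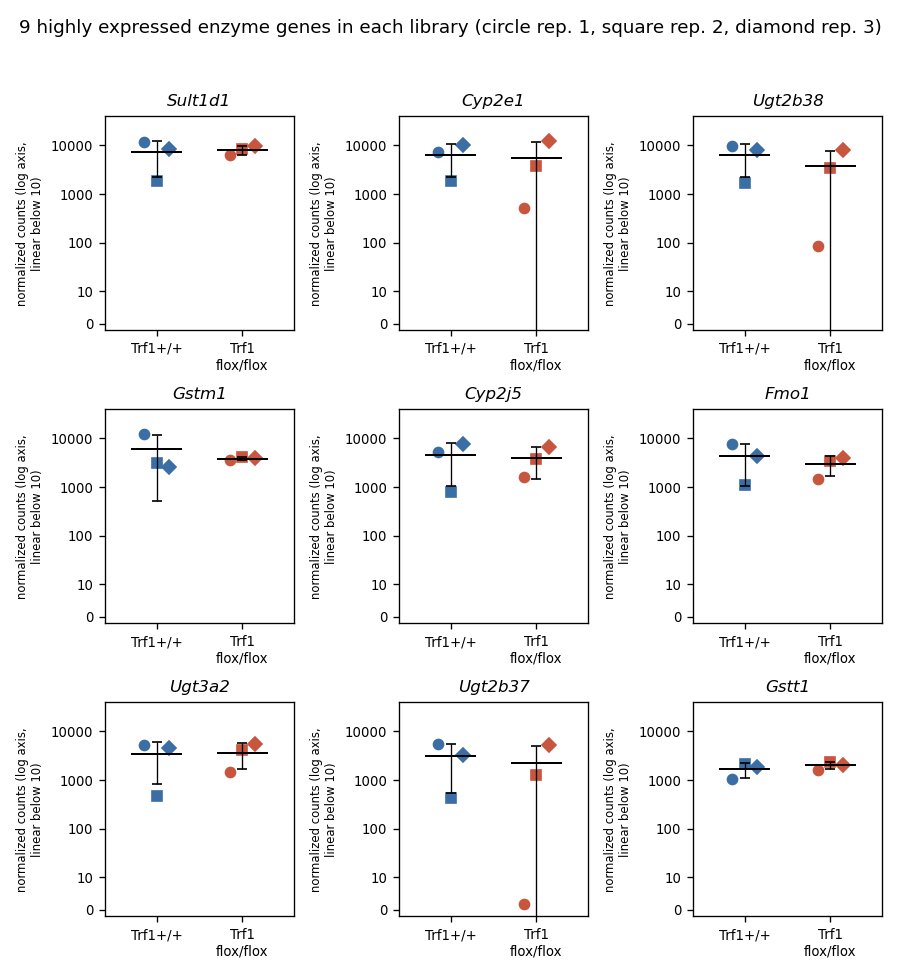
Normalized counts of 9 enzyme genes with high levels in each library (points, circle for replicate 1, square for replicate 2, diamond for replicate 3) by genotype, with the mean (line) and SD (bar) of 3 libraries on an axis that is logarithmic above 10 and linear below, where bars that pass 0 are clipped. Trf1flox/flox replicate 1 lies lowest of its group in each panel but is far below the others in *Ugt2b37* and *Ugt2b38*, at 1.72 and 87.6.

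UGT enzymes of the endoplasmic reticulum join a sugar, usually glucuronic acid, to drugs, steroids and bilirubin. *Ugt2b38* (ENSMUSG00000061906, chromosome 5, 87409942 to 87424203) had 9711, 1675 and 7897 among Trf1+/+ and 87.6, 3411 and 7946 among Trf1flox/flox libraries. *Ugt2b37* (ENSMUSG00000057425, chromosome 5, 87240493 to 87254804), 155137 bases away on the same strand, had 5468, 433 and 3338 and 1.72, 1255 and 5376. The order of the 6 libraries was the same in both genes, with Trf1flox/flox replicate 1 last by a wide margin and Trf1+/+ replicate 2 low. Log2 fold changes were -1.91 ± 1.31 (SE) and -2.92 ± 2.14 (SE), and 0.045 and 0.38 without Trf1flox/flox replicate 1. Between 18.3% and 37.4% of the 50-base windows of these genes occur in other genes, chiefly *Ugt2b5*.

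The 250 bases before the transcription start of both genes, as RefSeq gives them for GRCm38.p6, are shown because the genes moved together over the libraries. The *Ugt2b37* window is chr5:87254789-87255038 and that of *Ugt2b38* is chr5:87424204-87424453, both on the minus strand and written 5′ to 3′. Capitals mark bases that differ between the aligned sequences.
Ugt2b37: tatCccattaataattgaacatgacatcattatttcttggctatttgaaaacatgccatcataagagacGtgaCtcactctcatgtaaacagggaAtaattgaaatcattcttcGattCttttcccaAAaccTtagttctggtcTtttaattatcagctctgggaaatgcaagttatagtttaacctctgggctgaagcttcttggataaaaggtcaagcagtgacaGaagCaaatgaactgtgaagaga
Ugt2b38: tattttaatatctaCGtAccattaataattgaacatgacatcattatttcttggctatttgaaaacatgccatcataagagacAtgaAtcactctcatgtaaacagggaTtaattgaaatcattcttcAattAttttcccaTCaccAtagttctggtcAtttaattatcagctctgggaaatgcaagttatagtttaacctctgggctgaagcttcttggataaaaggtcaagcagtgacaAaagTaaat
Over 238 aligned positions 224 were identical (94.1%) and 14 differed or held a gap.

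*Ugt3a2*, of a subfamily that uses sugars other than glucuronic acid (ENSMUSG00000049152, chromosome 15, 9335550 to 9370955), had 5262, 466 and 4476 among Trf1+/+ and 1499, 4125 and 5441 among Trf1flox/flox libraries, with Trf1+/+ replicate 2 the lowest. Its log2 fold change was 0.54 ± 0.84 (SE), and -0.59 without that library. *Ugt1a10* (ENSMUSG00000090165, chromosome 1, 88055388 to 88219004) had 126, 0 and 0 and 416, 380.3 and 125. No read fell on it in 2 of the Trf1+/+ libraries, and the groups overlapped, since Trf1flox/flox replicate 3 lay just under Trf1+/+ replicate 1. Means were 42.2 ± 73.0 and 307 ± 158 (SD, n = 3 each), a 7.29-fold ratio, with a log2 fold change of 5.76 ± 2.54 (SE, adjusted p = 0.970 from limma).

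The *Ugt1a* genes splice their own first exon to exons they share, and 54.6% to 64.3% of their exonic bases lie in other *Ugt1a* genes, so their values are uncertain. *Ugt1a2* had no read in Trf1+/+ and 405, 126 and 0 in Trf1flox/flox libraries, and *Ugt1a6b* had no read in Trf1+/+ and 12.0, 31.7 and 1.38 in Trf1flox/flox libraries. Neither passed the filter. *Ugt1a7c* went the other way, with 0, 5.8 and 479.9 against 0, 1.09 and 60.0. The remaining *Ugt1a9*, *Ugt2b34* and *Ugt3a1* had log2 fold changes of 2.87, 0.84 and 1.23 with overlapping groups.

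Glutathione S-transferases couple glutathione to electrophiles. All 17 were tested, 12 with positive and 5 with negative log2 fold changes, with a median of 0.31. The median standard deviation of log2 levels within a genotype was 0.899 for GST, 1.04 for SULT, 1.15 for FMO, 2.47 for CYP2, 2.63 for UGT and 2.86 for CES genes, against 2.17 over all tested genes. *Gstm1* (ENSMUSG00000058135, chromosome 3, 108012255 to 108017973) had 12359, 3146 and 2567 among Trf1+/+ and 3614, 4079.5 and 3885 among Trf1flox/flox libraries. Trf1+/+ replicate 1 stood above the other 5, and the log2 fold change of -0.27 ± 0.56 (SE) was 0.44 without it and 0.012 after upper-quartile scaling.

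*Gstt1*, which acts on small halogenated compounds (ENSMUSG00000001663, chromosome 10, 75783813 to 75798584), had 1063, 2135 and 1861 and 1629.9, 2342 and 2089. *Gstt2* beside it (ENSMUSG00000033318, chromosome 10, 75831114 to 75837424) had 4189, 752 and 2497 and 2072, 1658 and 2672. The genotypes were mixed in both. The log2 fold changes were 0.31 ± 0.49 (SE) and 0.07 ± 0.62 (SE), the latter -0.63 without Trf1+/+ replicate 2 and -0.10 without Trf1flox/flox replicate 3.

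*Gsto2*, an omega-class enzyme that reduces dehydroascorbate (ENSMUSG00000025069, chromosome 19, 47865534 to 47886324), had 0, 0 and 0 among Trf1+/+ and 54.1, 86.3 and 73.7 normalized counts among Trf1flox/flox libraries. No read fell on it in any Trf1+/+ library, and all 3 Trf1flox/flox libraries held it. Against a floor of 3 reads in each Trf1+/+ library, the Trf1flox/flox mean of 71.4 ± 16.2 (SD, n = 3) was at least 26.4-fold higher, and the log2 fold change was 6.15 ± 1.63 (SE, adjusted p = 0.970 from limma). This floor covers counting error only, since PCR copies could not be removed. *Gsto2* was the only tested enzyme that passed the filter on low values through the Trf1flox/flox libraries alone, and a gene that passes in this way has to differ between the groups. *Gsto1*, which ends 743 bases before it on the same strand, had 0.891, 811 and 587 and 827, 21.9 and 574, with overlapping groups.

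**Figure D5:**
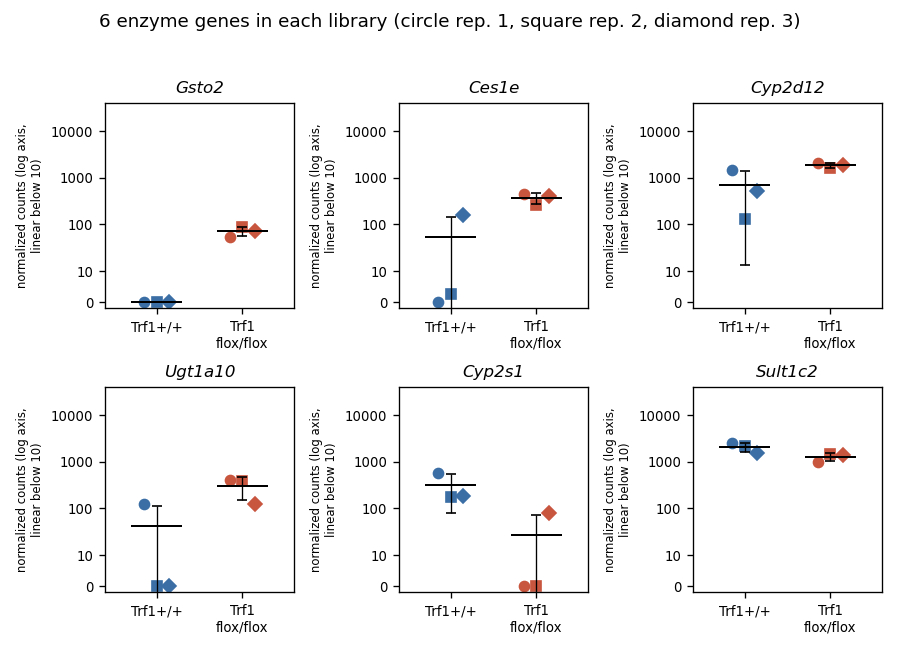
Normalized counts in each library (points, circle for replicate 1, square for replicate 2, diamond for replicate 3) of the 6 enzymes with an unadjusted limma p under 0.05 or with groups that do not overlap, with the mean (line) and SD (bar) of 3 libraries on an axis that is logarithmic above 10 and linear below, where bars that pass 0 are clipped. *Gsto2* is at 0 in all Trf1+/+ libraries and between 54.1 and 86.3 in Trf1flox/flox libraries, whereas *Sult1c2* differs by a 1.64-fold ratio of means.

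Promoter windows of RefSeq (GRCm38.p6, 250 bases before to 50 after the start) were at hand for 49 of the 64 enzymes. They were searched on both strands for the antioxidant response element TGACNNNGC, bound by NRF2, and the xenobiotic response element TNGCGTG, bound by the aryl hydrocarbon receptor. Neither motif contains the other, and a window without a match says only that these letters are not in it. The first was in the windows of 4 of 49 enzymes (8.16%), *Cyp2j6*, *Gsta3*, *Gstm5* and *Gstm7*, against 14.0% of 27025 genes. The second was in 2 of 49 (4.08%), *Gsta2* and *Sult1d1*, against 5.84%. The window of *Gsto2* (chr19:47865295-47865544, plus strand), the enzyme that met the filter on low values only through Trf1flox/flox libraries, held neither. That of *Gsta3* (chr1:21240335-21240584, plus strand) is shown beside it as one with a match, in capitals, that starts 121 bases before the start.
Gsto2: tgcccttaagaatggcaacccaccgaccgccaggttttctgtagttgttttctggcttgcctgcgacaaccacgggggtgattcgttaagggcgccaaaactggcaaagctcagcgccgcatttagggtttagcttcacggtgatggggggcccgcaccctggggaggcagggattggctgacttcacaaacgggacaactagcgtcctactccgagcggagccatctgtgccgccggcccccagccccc
Gsta3: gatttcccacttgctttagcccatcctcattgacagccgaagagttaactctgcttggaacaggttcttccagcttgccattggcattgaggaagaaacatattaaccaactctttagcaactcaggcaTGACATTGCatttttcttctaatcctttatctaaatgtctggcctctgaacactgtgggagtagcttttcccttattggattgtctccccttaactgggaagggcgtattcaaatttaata
*Gsta3*, an alpha-class enzyme, had 854, 473 and 1122 among Trf1+/+ and 812, 1578 and 800.0 among Trf1flox/flox libraries, with overlapping groups and a log2 fold change of 0.39 ± 0.61 (SE).

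The other 13 GST genes, *Gsta2*, *Gsta3*, *Gsta4*, *Gstk1*, *Gstm2*, *Gstm4*, *Gstm5*, *Gstm7*, *Gsto1*, *Gstp1*, *Gstp2*, *Gstt3* and *Gstz1*, had log2 fold changes between -3.02 for *Gstm4* and 2.93 for *Gstm7*, none at an unadjusted p under 0.05 and all with overlapping groups. Without Trf1+/+ replicate 1, 8 enzymes were higher without overlap (14.8%, against 9.17% of all genes) and 3 lower (5.56%, against 8.76%). The alpha-class *Gsta2* and *Gsta4* were among the higher ones, whereas the alpha-class *Gsta3* still overlapped. *Gsta2* had 1974, 366 and 1060.3 against 1432, 2160.5 and 1477, and *Gsta4* had 1279, 398 and 406 against 1025, 1359.5 and 1040.5. In both genes Trf1+/+ replicate 1 lay among the Trf1flox/flox libraries and the other Trf1+/+ libraries below them. *Gsta2*, *Gstp1* and *Gstp2* share 33.7% to 54.3% of their 50-base windows with other genes, so reads may have been split.

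Sulfotransferases transfer sulfate to phenols, steroids and amines. *Sult1d1*, which sulfates catecholamines and is known from mouse kidney (ENSMUSG00000029273, chromosome 5, 87554645 to 87569027), had 11920.0, 1833 and 8272 among Trf1+/+ and 6199, 8601 and 9568 among Trf1flox/flox libraries. Only Trf1+/+ replicate 2 stood apart, and the log2 fold change of 0.50 ± 0.61 (SE) was -0.31 without it. *Sult1c2* (ENSMUSG00000023122, chromosome 17, 53829637 to 53846339) had 2505, 2236 and 1579 and 1016, 1455 and 1375. Every Trf1flox/flox library lay below every Trf1+/+ library, the nearest being 1455 and 1579, but the groups overlapped after upper-quartile scaling and after scaling to the proximal tubule markers. Group means were 2106 ± 476 and 1282 ± 234 (SD, n = 3 each), with a log2 fold change of -0.71 ± 0.48 (SE, adjusted p = 0.970 from limma), -0.90 to -0.55 when libraries were left out in turn.

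*Sult1a1*, the main phenol sulfotransferase (ENSMUSG00000030711, chromosome 7, 126672865 to 126676432), had 738, 315 and 98.5 among Trf1+/+ and 102, 0 and 258 among Trf1flox/flox libraries. The groups overlapped, and the log2 fold change of -3.25 ± 2.18 (SE) rested in part on the library at 0. *Sult1b1* was not tested, being above 3 reads only in replicate 3 of each genotype, at 61.1 and 34.5.

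Single libraries set much of the spread among the enzymes. Trf1+/+ replicate 2 was the lowest of the 6 libraries, without ties, for 17 of the 58 tested enzymes (29.3%), against 12.5% of all tested genes, and Trf1flox/flox replicate 1 for 10 (17.2%), against 12.1%. Trf1+/+ replicate 1 was the lowest for 10 enzymes (17.2%), against 30.1% of all tested genes, and the highest for 20 (34.5%, against 27.4%). Trf1flox/flox replicate 3 was the lowest for 1 enzyme (1.72%, against 7.23%).

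In Trf1flox/flox replicate 1, 10 enzymes were under 10% of their level in each of the other libraries of that genotype, 17.2% of those tested against 7.45% of all tested genes. The same count was 10 in Trf1flox/flox replicate 2 (17.2%, against 18.2%) and 13 in Trf1+/+ replicate 1 (22.4%, against 29.7%). A count of this size was thus found elsewhere, but there the share did not exceed that of all genes. It was 3 in Trf1+/+ replicate 2 (5.17%, against 6.31%) and 3 in Trf1+/+ replicate 3 (5.17%, against 4.23%). In Trf1flox/flox replicate 3 it was 0, against 2.39%. In Trf1flox/flox replicate 1 they were *Ces1f*, *Ces2c*, *Cyp2a4*, *Cyp2d26*, *Cyp2j13*, *Cyp2u1*, *Fmo5*, *Gstm7*, *Ugt2b37* and *Ugt2b38*, a list made after the values were seen. *Cyp2j13* had 0 there and 198 and 1264 in the other Trf1flox/flox libraries, and *Cyp2d26* had 0 there and 330.0 and 176. In the same library 12 of the 16 proximal tubule markers were the lowest of their genotype, 2 of them, *Slc7a7* and *Slc7a13*, under 10% of both other libraries, whereas *Lrp2* had 2548 there against 2056 and 6454 and *Slc22a8* 1049 against 710 and 1265. *Xist* was high and *Ddx3y* at 0 in it. Whether sex or the proximal tubule share had a part in these enzyme levels was not tested.

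Other genes of the same pathway were taken from 5 lists with 79 genes, of which 64 were listed and 57 tested. Of these, 31 had positive and 26 negative log2 fold changes, where 55.9% of all tested genes were positive. By limma, edgeR or DESeq2 0 of them had an unadjusted p under 0.05. Of all tested genes 2.1% (higher) and 1.03% (lower) passed by limma, 1.26% and 0.702% by edgeR, and 2.44% and 1.68% by DESeq2. In 0 did the groups not overlap, against 5.35% (higher) and 3.33% (lower) of all tested genes. Receptors and regulators, with *Nfe2l2*, which encodes NRF2, at 954, 1516 and 1745 among Trf1+/+ and 775, 3001 and 597 among Trf1flox/flox libraries, had 9 of 10 tested genes positive, *Nfe2l2* itself being the negative one (log2 fold change -0.29). *Nr1i2* and *Nr1i3*, which encode the xenobiotic receptors PXR and CAR, were not listed. Among the redox partners that hand electrons to P450, *Cyb5a* (cytochrome b5) had 32972, 11443 and 18170 and 5317, 16933 and 24748, and 4 of 8 tested genes were positive.

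Other phase I enzymes had 7 of 14 tested genes positive, the aldo-keto reductase *Akr1c21* being the highest of the list with 45875, 6776 and 20019 among Trf1+/+ and 2801, 20374 and 26198 among Trf1flox/flox libraries. Among other phase II enzymes and genes of cofactor supply 4 of 18 were positive, and *Acsm2*, which activates acids for glycine conjugation, had 8443, 2609 and 12836 and 1829, 10000.0 and 15051. *Cyb5a*, *Akr1c21* and *Acsm2* were lowest in Trf1flox/flox replicate 1 and next lowest in Trf1+/+ replicate 2, as *Cyp2e1* and *Ugt2b38* were. All 7 tested efflux transporters had positive log2 fold changes, with a median of 2.25, and *Abcg2*, the highest of them, had 2046, 324 and 2015 and 1175, 657 and 2382. Groups overlapped in each of the 7, and the lowest library was Trf1+/+ replicate 1 or 2 in each. In Trf1+/+ replicate 1 *Abcc1* had 1 read and *Abcc4* and *Abcc5* had 0, and *Abcb1b* had 3 reads in each of Trf1+/+ replicates 2 and 3. The median thus rests in part on libraries at the floor. Means of Trf1+/+ and Trf1flox/flox were 90.6 and 26.2 for *Abcb1b* and 1462 and 1404 for *Abcg2*, lower in Trf1flox/flox. The means of the other tested transporters were higher.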

How the data were processed

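The sorted cells of each mouse gave 1 library. Per the labels and the paper, the authors checked reads with FastQC 0.11.7, aligned them with TopHat2 2.0.10 (Bowtie 1.0.0, SAMtools 0.1.19), allowing several hits per read, and counted them with HTSeq 0.6.1. The labels also list DESeq2, with no role. The paper names GRCm38, the labels GRCm39. The table holds symbols only, so identifiers and positions come from GENCODE M21 (GRCm38), matched by symbol for 64 of 64 enzymes. HTSeq's overlap mode and strand setting are not given in the sources used here, and the kit was non-stranded.

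The deposited signal values are normalized counts made by the authors. All values (100%) were whole multiples of 1 read within 0.001, so reads were recovered. Genes that reached 10 normalized counts in 3 or more libraries were tested with limma 3.58.1 (mean-variance trend, R 4.3.3) on log2(value + 1), two-sided, 3 against 3 libraries, where an exact permutation of 1 gene cannot go below p = 0.1. The script was tested on simulated data. Alternatives were pseudocounts of 0.5 and 5, no filter, a minimum of 50, 2 scalings, edgeR 4.0.16 and DESeq2 1.42.0 on recovered reads and each library left out. After adjustment edgeR called 0 and DESeq2 58 of 9966 genes. The members and lists were chosen with earlier results of these data known. Enzymes named with values were the 3 highest of each family, those with an unadjusted p under 0.05 and those whose groups did not overlap. Other enzymes with values in each library were chosen after their values were seen. Whether the mice were littermates or kept apart is not stated, and p-values measure the spread between these libraries.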

Additional observations from a re-analysis of the deposited data

How the results depend on the processing

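No paired analysis was possible because the labels give the mice of the genotypes no shared numbers. No enzyme reached an adjusted p under 0.05 under any setting. The smallest was 0.11 for *Gsto2* with limma without a mean-variance trend, an alternative chosen after seeing the data. That value supports nothing, since *Gsto2* met the filter only through Trf1flox/flox libraries and had to differ. The median over all tested genes was 0.20, 0.44 after upper-quartile scaling, 0.04 after scaling to proximal tubule markers, -0.04 with edgeR and -0.05 with DESeq2. Positive and negative enzymes then numbered 34 and 24, 38 and 20, 31 and 27, 30 and 28, and 30 and 28. Positive shares were 58.6%, 65.5%, 53.4%, 51.7% and 51.7%, against 55.9%, 64%, 51%, 48.3% and 48.3% of all genes. The log2 fold changes of 11 of the 29 named enzymes kept their sign under every setting in which they were tested, *Ces1e*, *Cyp2d12*, *Cyp2s1*, *Ugt1a10* and *Sult1c2* among them, and 18 turned under at least 1, of which 12 only when 1 or both libraries were left out and 6 under another test or scaling. For *Gsto2*, at 0 in every Trf1+/+ library, the sign could not turn. The groups of *Ces1e*, *Cyp2d12*, *Cyp2s1* and *Sult1c2* did not overlap. Their signs therefore could not turn when libraries were left out or the pseudocount or filter changed. Only the scalings, edgeR and DESeq2 could have turned them. The cause of the turns in other enzymes was not tested.

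With edgeR and DESeq2 the log2 fold change turned to 0.10 and 0.050 for *Ces1f*, 0.43 and 0.44 for *Ces2c*, -0.083 and -0.15 for *Cyp2j5*, -0.17 and -0.11 for *Ephx1*, and -0.11 and -0.19 for *Gstt2*. Upper-quartile scaling gave 0.012 for *Gstm1* and proximal tubule scaling -0.043 for *Gstt2*. Leaving out both replicates 1, the libraries that stand apart, chosen after seeing the data, gave -0.32 for *Ces1d*, 0.99 for *Ces1f*, 0.49 for *Ces2c*, 0.67 for *Cyp2e1*, 0.68 for *Ephx2*, 0.76 for *Fmo1*, 0.076 for *Fmo5*, 0.49 for *Gstm1*, -0.025 for *Nqo1*, 1.11 for *Ugt2b37* and 0.52 for *Ugt2b38*. This setting had 34 positive and 15 negative enzymes (69.4% positive, against 50.2% of all genes). Without Trf1flox/flox replicate 1 alone 72.2% of enzymes were positive, against 53.8%. Leaving out any other single library gave 52% to 64.8%, against 49% to 58.4%.

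Enzymes higher at an unadjusted p under 0.05 were 4 of 58 in the main analysis (against 2.1% of all genes) and 2 with proximal tubule scaling (0.919%). They were 1 with edgeR (1.26%) or DESeq2 (2.44%) and 4 of 49 with both libraries left out (0.952%). Enzymes lower were 1 (against 1.03%), then 0 with upper-quartile scaling (0.565%), edgeR (0.702%) or both libraries left out (0.858%). They were 2 with proximal tubule scaling (0.596%). Non-overlapping enzymes were 3 higher and 2 lower, 6 and 1 after upper-quartile scaling (10.3% and 1.72%, against 6.43% and 2.22% of all genes) and 10 and 5 with both libraries left out (20.4% and 10.2%, against 14.9% and 17.2%). Over all genes DESeq2 called 58 after adjustment (410 before), where limma called 0 (312 before) and edgeR 0 (196 before).

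With each library left out in turn, the log2 fold change ran from -0.16 to 4.65 for *Ces1d*, -2.23 to 0.97 for *Ces1f*, -1.65 to 1.69 for *Ces2c*, -1.87 to 0.42 for *Cyp2e1*, -0.87 to 0.76 for *Cyp2j5*, -0.36 to 3.31 for *Cyp39a1*, -0.65 to 3.92 for *Ephx1*, -1.15 to 0.32 for *Ephx2*, -1.08 to 0.33 for *Fmo1*, -2.92 to 2.56 for *Fmo5*, -0.69 to 0.44 for *Gstm1*, -0.63 to 0.61 for *Gstt2*, -0.41 to 1.40 for *Nqo2*, -0.31 to 1.04 for *Sult1d1*, -5.09 to 0.38 for *Ugt2b37*, -3.20 to 0.045 for *Ugt2b38* and -0.59 to 1.16 for *Ugt3a2*. *Gsto2* fell below the filter when a Trf1flox/flox library was left out and had 6.15 otherwise. Counts ran from 1 to 6 (higher) and 0 to 4 (lower) at an unadjusted p under 0.05, against 0.322% to 5.8% and 0.67% to 2.04% of all genes. Without overlap they ran from 4 to 8 (higher) and 2 to 8 (lower), against 8.23% to 13.7% and 6.18% to 11.8%. Of the 58 tested enzymes, 34 were above 3 reads in all 6 libraries (58.6%, against 49.8% of all tested genes). The library with the most reads, Trf1+/+ replicate 1 (12248797), had the fewest genes above 0 (8967). That with the fewest reads, Trf1flox/flox replicate 3 (10263382), had the most (11593). Why genes were at few reads was not tested.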
